A study of Homo sapiens with 7 samples.

Results

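The genes described are those of MHC class I antigen presentation, namely HLA-B, HLA-C, HLA-E and HLA-F (heavy chains), B2M (light chain), TAP1 and TAP2 (peptide transporter), TAPBP (tapasin) and NLRC5 (transactivator). They were taken by gene symbol from a list that was chosen with earlier results of these data known. All 9 were found among the 21305 genes of the table. RNA-seq was performed on 501Mel, a human melanoma line with melanocytic traits, carrying a hairpin that doxycycline switches on. The 7 libraries comprised 3 with a hairpin against bacterial lacZ (shlacZ, the control), 2 with the hairpin sh4 and 2 with the hairpin sh8, both directed against the long non-coding RNA GRASLND. All groups shared the lentiviral Tet-pLKO-puro vector, puromycin selection as a pool of transduced cells rather than as single clones, and the doxycycline. The labels name no interferon for any library, so the levels are those of cells without added cytokine. The labels do not say which hairpin sequence of the study is sh4 and which is sh8, nor whether replicates came from separate cultures, so p-values measure the spread between these samples, which may be technical.

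MHC class I molecules display peptides from inside the cell to CD8+ T lymphocytes. A heavy chain pairs with β2-microglobulin in the endoplasmic reticulum, where the TAP1/TAP2 heterodimer imports peptides from the cytosol and tapasin holds the empty molecule beside the transporter until a peptide has bound. NLRC5 switches on transcription of most of these genes, and interferon γ raises them strongly, in part through IRF1. Loss of class I presentation is a known way in which melanoma cells avoid T cells, and the study asked how GRASLND bears on the interferon γ response, so that the level before any interferon is the baseline of that question.

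Depth ranged from 13337317 to 22855232 reads per library. The mean of GRASLND itself was 50.5% lower under sh4 and 37.0% lower under sh8 than in shlacZ, and all 4 knockdown libraries lay under all 3 controls (adjusted p 0.00662 under sh4 and 0.110 under sh8 by limma, and pooled 0.0402, passed in 1 of 7 fits that each left out a library, with 0.182 without the second shlacZ library). The adjusted p under sh4 was 0.0772 without the second sh4 library. The 7 melanocytic markers were all present, whereas 1 of 9 leukocyte markers (CD68) and 0 of 3 endothelial markers were in the table. The summed level of the melanocytic markers was 135575 to 146343 normalised counts in shlacZ, 51868 to 59737 under sh4 and 101544 to 104484 under sh8. TYR did not follow the sum, with 8192 to 9420 in shlacZ, 9183 to 10288 under sh4 and 9200 to 11314 under sh8. MITF followed it under sh4 (11635 to 12619) but under sh8 (17418 to 19031) lay within the control range (17326 to 22076). CD68 ranged from 441 to 675 over the 7 libraries.

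To show the regulatory stretch that these genes have in common, the 250 bases before the RefSeq start site were searched (GRCh38.p14). Promoters were held for 7 of the 9 genes, and TAP1 had a pair of start sites. Capitals mark the core to which interferon regulatory factors (IRF) can bind, TTTCNNTT on either strand (AANNGAAA when read on the other strand). The transporter genes, tapasin and the light chain are shown, since the results turn on them.
TAP1, chr6:32853705-32853954, minus strand: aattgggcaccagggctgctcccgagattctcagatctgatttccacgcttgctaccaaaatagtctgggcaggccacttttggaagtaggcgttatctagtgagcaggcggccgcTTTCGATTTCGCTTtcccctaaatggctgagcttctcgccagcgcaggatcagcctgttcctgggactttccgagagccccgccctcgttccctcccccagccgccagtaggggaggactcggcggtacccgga
TAP2, chr6:32838740-32838989, minus strand: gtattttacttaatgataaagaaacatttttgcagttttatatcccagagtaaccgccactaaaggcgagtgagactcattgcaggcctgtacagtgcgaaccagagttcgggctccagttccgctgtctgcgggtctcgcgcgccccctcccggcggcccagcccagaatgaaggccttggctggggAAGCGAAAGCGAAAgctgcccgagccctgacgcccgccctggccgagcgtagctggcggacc
TAPBP, chr6:33314079-33314328, minus strand: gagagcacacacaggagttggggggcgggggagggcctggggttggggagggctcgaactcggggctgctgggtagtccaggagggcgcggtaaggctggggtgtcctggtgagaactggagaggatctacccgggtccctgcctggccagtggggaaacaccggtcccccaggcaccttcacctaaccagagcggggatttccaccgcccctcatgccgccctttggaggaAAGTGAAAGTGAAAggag
B2M, chr15:44711267-44711516, plus strand: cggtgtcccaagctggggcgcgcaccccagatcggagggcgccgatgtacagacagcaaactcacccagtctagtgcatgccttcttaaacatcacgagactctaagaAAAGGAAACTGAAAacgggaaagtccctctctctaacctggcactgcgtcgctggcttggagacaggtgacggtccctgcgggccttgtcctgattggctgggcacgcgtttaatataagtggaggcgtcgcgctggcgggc

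The core was found in all 7 genes with a promoter, and in 20.3% of all 35116 promoters of the same length. In TAP1 it was found before the first start site alone. Its first base lay at -134 and -128 in TAP1, at -62 and -56 in TAP2, at -18 and -12 in TAPBP and at -142 and -136 in B2M, counted backwards from the start site. In each of these genes 2 copies overlapped and began 6 bases apart. The heavy chains held a single copy at similar places, at -155 in HLA-B, -151 in HLA-C and -156 in HLA-F. This spelling was settled after the sequences had been read. The longer TTTCNNTTC, which overlaps it, was present in 3 of the 7 genes (HLA-B, HLA-C and TAP2) and in 6.56% of all promoters. A CCAAT box (CCAAT, either strand) was present in 5 of the 7 and in 32.0% of all promoters, and TGACG, the core of a CRE site, in 4 of the 7 and in 21.2%. An NF-κB type site in the spelling GGGNNTTCC was present in HLA-B and TAPBP and in 5.78% of all promoters. The longer GGGACTTTCC, which this spelling misses, stands in the TAP1 sequence above and, on the other strand, in that of B2M. It was not counted over all promoters. These are matches of letters in a window, and binding was not measured.

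Levels between genes were compared as normalised counts (reads divided by the size factor of the library) per kb of the canonical GENCODE 44 transcript. In shlacZ cells B2M stood at 2518 ± 202 (SD, n = 3) per kb, and was followed by TAPBP at 452 ± 13.6. B2M lay above 97.8% of the 15408 genes that had a length and a mean of at least 10, the minimum for testing. HLA-C stood at 291 ± 25.0, HLA-E at 229 ± 19.4 and TAP2 at 163 ± 7.81. HLA-B (54.6 ± 3.95), HLA-F (54.3 ± 17.0) and TAP1 (44.2 ± 9.26) followed. NLRC5 came last at 2.20 ± 1.13 per kb, above 1.07% of the same 15408 genes. Genes under the minimum mean were not ranked.

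**Figure D1:**
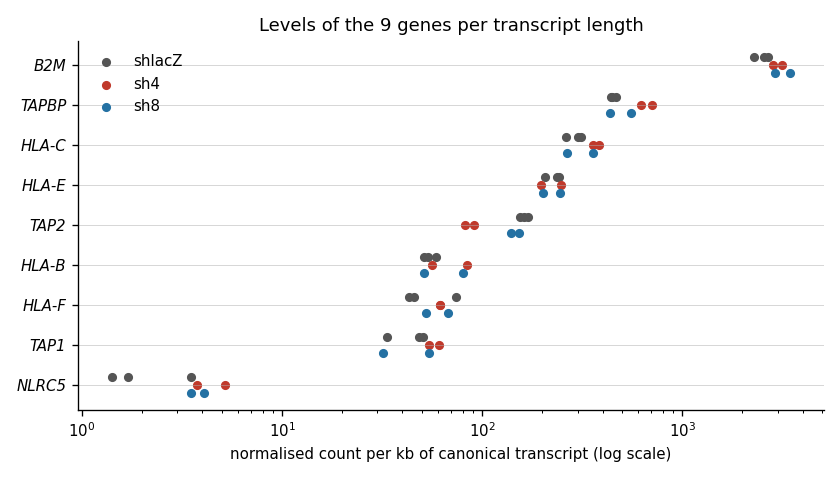
Normalised count per kb of canonical transcript (horizontal axis, log scale) of the 9 genes in each library, 1 point per library, with shlacZ in grey, sh4 in red and sh8 in blue. B2M lies at 2298 per kb or higher in all 7 libraries, and NLRC5 at 5.16 or lower.

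Thus the light chain was the most abundant of these transcripts and the transactivator the least. HLA-B and HLA-F could not be ordered, since their libraries overlapped, and neither could HLA-F and TAP1. The remaining neighbours in the order did not overlap among the 3 control libraries. Between HLA-C and HLA-E, however, the lowest library of the former (263) stood close to the highest of the latter (242). When all annotated exons were used as length, HLA-E (199) passed HLA-C (179) and TAP1 (25.0) passed both HLA-B (18.1) and HLA-F (18.6). Within the 4 heavy chains, HLA-C contributed 46.3% ± 2.02 and HLA-E 36.3% ± 1.53 of the summed level per kb in the control.

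Across all genes, 711 of 15420 tested (4.61%) passed an adjusted p under 0.05 (limma on log2 of the normalised count + 1, Benjamini-Hochberg over all genes tested) when both hairpins were pooled against shlacZ. Under sh4 alone 22.5% passed (1624 higher, 1840 lower) and under sh8 alone 2.92%, whereas 7.0% differed between sh4 and sh8. Rescaled to a common library total, the split under sh4 was 2178 higher and 1493 lower. For sh4 against sh8 it was 859 higher and 424 lower in place of 566 and 513.

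None of the 9 genes passed with both hairpins pooled (0 of 9 by limma and 0 by limma-voom on the recovered reads, with 3 at an unadjusted p under 0.05, namely B2M, TAP2 and NLRC5). Under sh4, 2 of 9 passed, with TAPBP higher and TAP2 lower. Under sh8, 0 of 9 passed by limma and 0 by limma-voom (1 at an unadjusted p under 0.05, B2M). In the direct comparison of sh4 with sh8, 1 of 9 passed, which was TAP2. These shares stand beside 4.61%, 22.5%, 2.92% and 7.0% of all genes. The log2 fold change was positive in 7 of 9 genes with the hairpins pooled and under sh4, and in 6 of 9 under sh8, against 49.4%, 49.4% and 48.8% of all genes. The median was 0.22 pooled, 0.33 under sh4 and 0.13 under sh8, and -0.01 over all genes in each case.

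**Figure D2:**
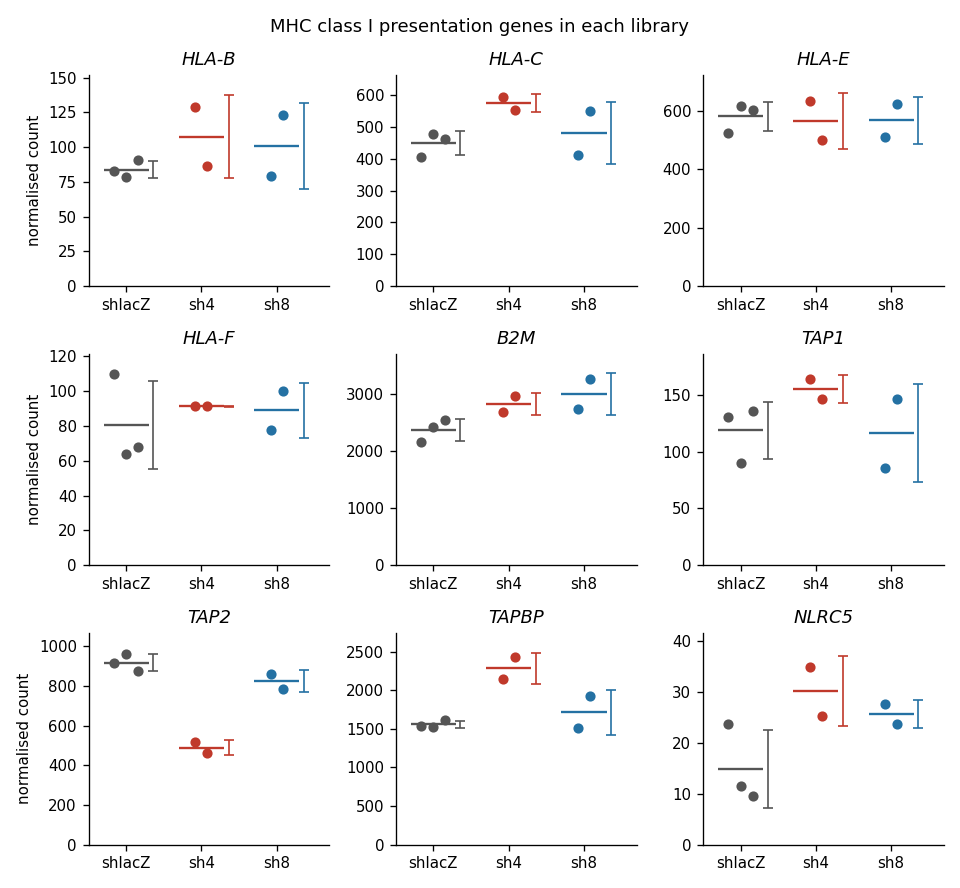
Normalised count (vertical axis, from 0) of each of the 9 genes in the shlacZ (n = 3), sh4 (n = 2) and sh8 (n = 2) libraries, 1 point per library, with the mean as a line and the SD as a bar beside it. TAP2 is at 463 to 515 in the sh4 libraries and at 784 or higher in the other libraries, and TAPBP is at 2142 and 2428 in the sh4 libraries.

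Among the heavy chains, which form the peptide groove, none passed the test in any of the 4 comparisons. HLA-B, a classical heavy chain, was at 82.6, 78.6 and 90.5 normalised counts in the shlacZ libraries, at 129 and 86.6 under sh4, and at 79.1 and 123 under sh8. One library of each hairpin was high and the other lay within the control range. The log2 fold change was 0.28 pooled (95% confidence interval -0.23 to 0.79, adjusted p 0.483 by limma).

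HLA-C, the other classical heavy chain on the list, showed 406, 479 and 464 in shlacZ, 595 and 555 under sh4, and 411 and 549.7 under sh8. Both sh4 libraries lay above the 3 controls, and the first sh8 library did not. Under sh4 the log2 fold change was 0.36 (interval -0.01 to 0.72, adjusted p 0.144 by limma), and under sh8 it was 0.09 (adjusted p 0.827).

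HLA-E, which displays leader peptides of other class I chains to NKG2A on natural killer cells, was at 525, 616 and 605 in shlacZ, 634 and 499 under sh4, and 511 and 625 under sh8. The 3 groups overlapped. The pooled log2 fold change of -0.04 had an interval of -0.36 to 0.27, so that folds from 0.780 to 1.21 lay within it (adjusted p 0.884 by limma).

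HLA-F, a heavy chain that can reach the surface without peptide, was at 109, 63.9 and 67.9 in shlacZ, 91.5 and 91.1 under sh4, and 77.8 and 100.1 under sh8. The first control library was the highest of all 7 and the other 2 controls were the lowest, so the groups overlapped. The pooled log2 fold change was 0.20 (adjusted p 0.643 by limma), and it ranged from 0.06 (adjusted p 0.944) without the second shlacZ library and 0.10 (0.889) without the third to 0.44 (0.218) without the first. The antisense transcript HLA-F-AS1, which overlaps HLA-F, ranged from 55.2 to 107.

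B2M encodes the light chain shared by all class I molecules. It was at 2167, 2414 and 2543 normalised counts in shlacZ, 2690.1 and 2962 under sh4, and 2743 and 3259 under sh8. All 4 knockdown libraries lay above all 3 controls, as did those of 10.2% of all genes. The mean was 2375 ± 191 (SD, n = 3) in shlacZ and 2914 ± 259 (SD, n = 4) in the knockdown libraries, but the log2 fold change of 0.29 (interval 0.03 to 0.55) missed the threshold after adjustment (adjusted p 0.162 by limma). It was 0.25 under sh4 and 0.34 under sh8, with a difference between the hairpins of -0.08 (interval -0.39 to 0.23). Under sh4 the adjusted p was 0.0432 with a common library total and 0.0408 after quantile normalization, at log2 fold changes of 0.35 and 0.35.

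Of the transporter subunits, which work as a pair, TAP2 passed the test under sh4 and TAP1 did not. TAP2 (ENSG00000204267, chr6:32821833-32838739, minus strand, hg38) was at 916, 962 and 873 normalised counts in shlacZ, 515 and 463 under sh4, and 862 and 784 under sh8. The sh4 libraries lay far under all others, and the sh8 libraries lay just under the controls. With all 4 knockdown libraries under all 3 controls, TAP2 shared this with 11.0% of all genes.

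TAP2 fell by 46.7% under sh4, from 917 ± 44.1 (SD, n = 3) to 489 ± 36.4 (SD, n = 2), with a log2 fold change of -0.91 (interval -1.19 to -0.62, adjusted p 0.00118 by limma). It was the 1 of 9 genes that passed downwards, where 11.9% of all genes did so. The call was kept in all 17 alternatives, with an adjusted p of at most 0.0207. Under sh8 the log2 fold change was -0.16 (interval -0.44 to 0.13, adjusted p 0.552). Pooled, it was -0.53 (adjusted p 0.165), and 0.00941 when the mean of both hairpins was taken from the fit with 3 groups.

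The difference between sh4 and sh8 in TAP2 was itself past the threshold, at -0.75 on the log2 scale (interval -1.06 to -0.44, adjusted p 0.0124 by limma), where 3.33% of all genes passed downwards. This call was lost without the second sh4 library (adjusted p 0.114), without the first sh8 library (0.109) and without the second sh8 library (0.0529), with log2 differences of -0.67, -0.68 and -0.82. The melanocytic marker sum was also lowest in the sh4 libraries (above), and its part in the TAP2 difference was not tested. In bulk RNA, fewer cells with the transcript and less transcript per cell cannot be told apart.

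TAP1 was at 130.0, 90.1 and 136 in shlacZ, 164 and 146 under sh4, and 85.7 and 147 under sh8. The sh4 libraries stood above the 3 controls, while 1 sh8 library lay under them and 1 above them. The log2 fold change was 0.40 under sh4 (interval -0.21 to 1.02, adjusted p 0.330 by limma) and -0.06 under sh8 (adjusted p 0.936). TAP1 shares its divergent promoter with PSMB9, an immunoproteasome subunit, which stood at 6.28 to 17.5 normalised counts over the 7 libraries.

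The ratio of TAP1 to TAP2 per kb, which was looked at after the values were known and was not tested, was 0.298, 0.197 and 0.327 in shlacZ. It was 0.668 and 0.663 under sh4, and 0.209 and 0.393 under sh8. Both sh4 libraries thus lay above all others, while 1 sh8 library lay within the control range and 1 above it. TAP2 remained the more abundant transcript of the pair in every library.

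**Figure D3:**
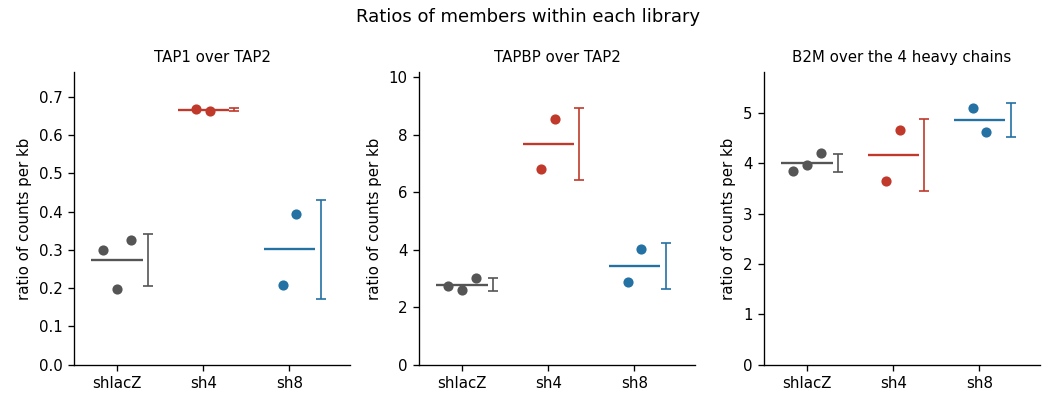
Ratio of normalised counts per kb within each library for TAP1 over TAP2 (left), TAPBP over TAP2 (middle) and B2M over the sum of HLA-B, HLA-C, HLA-E and HLA-F (right), 1 point per library, with the mean as a line and the SD as a bar. The left and middle ratios are highest in the sh4 libraries (means 0.666 and 7.69), and the right one has its highest group mean under sh8 (4.85), with the sh4 and sh8 libraries overlapping.

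Part of the TAP2 transcript cannot be assigned to TAP2 alone. Of its 31-base stretches, 35.5% also occur in transcripts of other genes, and each of these occurs in the annotated readthrough gene ENSG00000250264 on the same strand. That readthrough was listed at 3.10, 3.14 and 3.48 in the shlacZ libraries and at 0 in all 4 knockdown libraries. For HLA-C the shared part was 19.6% and for HLA-B 15.5%, of which 10.7% of HLA-B was shared with HLA-C. No stretch of B2M or NLRC5 was shared. How the quantification divided such reads among genes was not tested.

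Tapasin (TAPBP) bridges the transporter and the empty heavy chain. It was at 1536, 1528 and 1613 normalised counts in shlacZ, 2142 and 2428 under sh4, and 1511 and 1922 under sh8. Both sh4 libraries lay well above the narrow control range, 1 of the sh8 libraries lay above it and 1 under it. TAPBP rose by 46.6% under sh4, from 1559 ± 46.9 (SD, n = 3) to 2285 ± 202 (SD, n = 2), with a log2 fold change of 0.55 (interval 0.25 to 0.85, adjusted p 0.0158 by limma). It was the 1 of 9 that passed upwards, where 10.5% of all genes did so. The call was lost without the second sh4 library (0.46, adjusted p 0.125) and without the variance trend (adjusted p 0.0569).

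Under sh8 the log2 fold change of TAPBP was 0.13 (interval -0.17 to 0.42, adjusted p 0.652 by limma). The difference between the hairpins was 0.42 (interval 0.10 to 0.74) and did not pass after adjustment (adjusted p 0.119). Relative to TAP2, TAPBP per kb was 2.74, 2.60 and 3.02 in shlacZ, 6.80 and 8.57 under sh4, and 2.87 and 4.01 under sh8. This ratio, also looked at after the values were known and not tested, restates the values of both genes, since the sh4 libraries were the highest in TAPBP and the lowest in TAP2.

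NLRC5, the class I transactivator (ENSG00000140853, chr16:56989485-57083531, plus strand, hg38), was low throughout, with 11 to 34 reads per library. It was at 23.7, 11.5 and 9.57 normalised counts in shlacZ, 35.0 and 25.4 under sh4, and 27.7 and 23.7 under sh8. The first shlacZ library reached the level of the second sh8 library, and the other 2 controls lay at the bottom. The pooled log2 fold change of 0.95 was the largest of the 9 genes, but its interval was also the widest (0.12 to 1.78, adjusted p 0.157 by limma).

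Under sh4 it was 1.05 (adjusted p 0.117 by limma), and without the first shlacZ library it was 1.42 with an adjusted p of 0.0216. Without that library the value under sh8 was 1.21 (adjusted p 0.0792). The sh4 and sh8 values of NLRC5 differed by 0.21, with an interval of -0.87 to 1.30, which leaves room for a large difference in either direction.

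**Figure D4:**
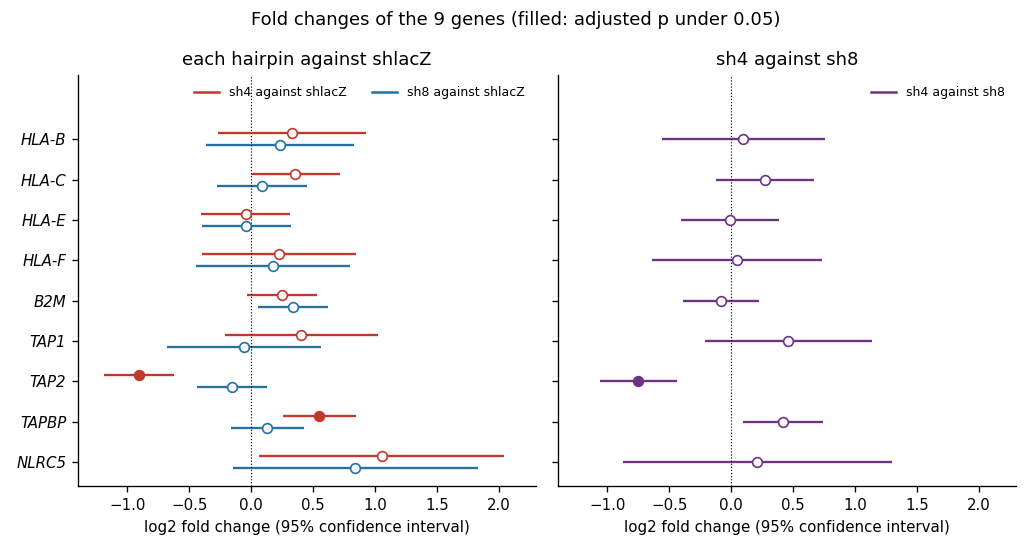
Log2 fold change (horizontal axis) of the 9 genes, with 95% confidence intervals as lines. Sh4 (red) and sh8 (blue) against shlacZ are on the left and sh4 against sh8 on the right, and filled points have an adjusted p under 0.05. TAP2 and TAPBP are filled for sh4, TAP2 is filled for sh4 against sh8 at -0.75, and no sh8 point is filled.

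The patterns of the 9 genes over the 7 libraries were also compared with each other, as the root mean square difference of log2 values after each gene was centred on its own mean. Of the 36 pairs, HLA-C and TAPBP were the most alike (0.13), followed by HLA-C and B2M (0.16). TAP2 and NLRC5 were the farthest apart (0.89), and the median pair differed by 0.32. TAP2 was no closer than 0.40 to any other member. These distances are descriptive, and low genes such as NLRC5 carry more counting noise.

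Among the 11365 other genes with a gene symbol and a mean of at least 50, the pattern most like that of B2M was that of ACTR10 (0.03), NLK (0.04) and NUCB1 (0.05). The nearest to HLA-B were RALGDS (0.10), GHDC (0.11) and INO80B (0.12), and the nearest to NLRC5 were TMEM198B (0.12), OCLN (0.13) and PRKG1 (0.14). The 9 class I presentation genes were left out of this pool, so none of them could be among the nearest. TMEM198B, for example, was at 244, 116 and 109 in shlacZ, 316 and 216 under sh4 and 250.4 and 251 under sh8, so it had the same high first control library as NLRC5.

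To place the 9 genes in their pathway, 85 further genes in 8 lists were followed, of which 60 reached the minimum mean of 10. These lists too were chosen with earlier results of these data known. With both hairpins pooled 2 of 60 passed, under sh4 13 (10 higher, 3 lower), under sh8 2, and between sh4 and sh8 3, beside 4.61%, 22.5%, 2.92% and 7.0% of all genes.

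**Figure D5:**
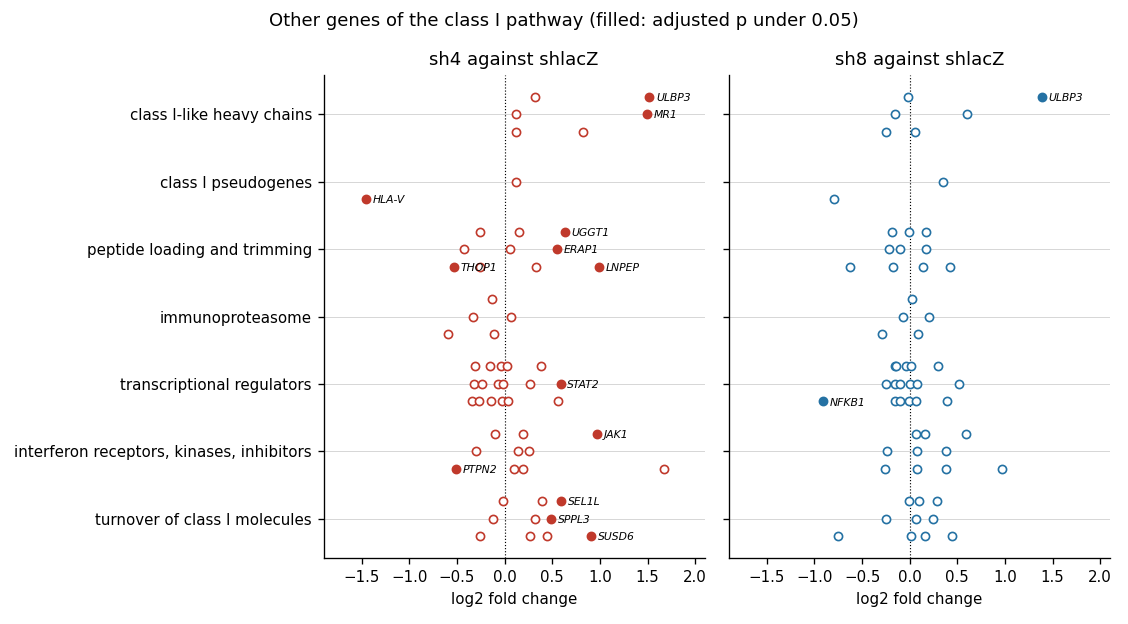
Log2 fold change (horizontal axis) of the 60 tested pathway genes, 1 point per gene, by list (vertical axis, points spread within a list for sight), for sh4 (left, red) and sh8 (right, blue) against shlacZ. Filled and named points have an adjusted p under 0.05, which are 13 genes for sh4 and 2 (ULBP3 and NFKB1) for sh8.

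Among the class I-like chains, ULBP3, a stress ligand of the receptor NKG2D on natural killer cells, was at 200.2, 279 and 203 normalised counts in shlacZ, 579 and 718 under sh4, and 606 and 572 under sh8. All 4 knockdown libraries lay above the 3 controls, and the sh4 and sh8 libraries overlapped. With both hairpins pooled it rose by 1.45 on the log2 scale (SE 0.16, limma adjusted p 0.00367), by 1.52 under sh4 and by 1.39 under sh8, and the pooled and sh4 calls were kept in every fit that left out a library. The sh8 call was lost without the first or the second sh8 library (adjusted p 0.0619 and 0.0637).

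MR1, which presents vitamin B metabolites to MAIT cells, was at 146, 99.5 and 116 in shlacZ, 329 and 347 under sh4, and 145 and 225 under sh8. It rose by 1.50 on the log2 scale under sh4 (SE 0.24, limma adjusted p 0.00215), and under sh8 the value was 0.60 (adjusted p 0.216). In this list 2 of 6 tested genes passed under sh4 and 1 of 6 under sh8, beside 22.5% and 2.92% of all genes. HLA-G lay under the minimum mean, at 0 to 3.48. Of the class I pseudogenes, HLA-V fell under sh4 from 34.3 to 11.8 in the mean (log2 fold change -1.46, adjusted p 0.0183 by limma).

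In the list of peptide loading and trimming, 4 of 10 tested genes passed under sh4 and 0 under sh8, beside 22.5% and 2.92% of all genes. LNPEP, an endosomal aminopeptidase that trims peptides, rose from a mean of 901 to 1785 (log2 fold change 0.99, adjusted p 0.00176 by limma). UGGT1, a folding sensor of the endoplasmic reticulum, rose by 0.63 on the log2 scale and ERAP1, which trims peptides there, by 0.55. THOP1, a cytosolic peptidase that destroys peptides, fell under sh4 (-0.53, adjusted p 0.0292 by limma) and with both hairpins pooled (-0.57, adjusted p 0.0408).

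The pooled THOP1 call passed in 2 of 7 fits that each left out a library. It was lost without shlacZ replicate 2 (adjusted p 0.195) or 3 (0.172), the first (0.0912) or second sh4 library (0.0759), or the second sh8 library (0.0711). The immunoproteasome list held 0 of 5 genes that passed in any comparison by limma or limma-voom (0 at an unadjusted p under 0.05 by limma). Over all genes, 2.92% to 22.5% passed by limma in the 4 comparisons. Of 12 class II presentation genes 5 were in the table, and 0 reached the minimum mean.

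Of the transcriptional regulators, 1 of 17 tested passed under sh4 and 1 under sh8, beside 22.5% and 2.92% of all genes. IRF1, the interferon-induced activator of class I genes, was at 27.9, 33.5 and 37.4 in shlacZ, 27.1 and 25.4 under sh4, and 30.3 and 24.6 under sh8 (pooled log2 fold change -0.28, adjusted p 0.556 by limma). STAT2, a transcription factor of type I interferon signalling, rose under sh4 (0.59, adjusted p 0.0322), a call kept without shlacZ replicate 1 or the second sh4 library and lost in the other 5 fits that each left out a library. CIITA, the class II counterpart of NLRC5, lay under the minimum mean (1.13 to 16.5).

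NFKB1, a subunit of NF-κB, was at 971, 1240.1 and 1147 in shlacZ, 1058 and 1214 under sh4, and 579 and 609 under sh8. The sh8 libraries lay under all others and the sh4 libraries within the controls. It fell under sh8 (log2 fold change -0.91, adjusted p 0.0110 by limma) and differed between the hairpins by 0.93 (adjusted p 0.00779). The sh8 call was lost without the first or second sh8 library (adjusted p 0.0962 and 0.0988), and the difference without the second sh4 library (0.0925) or the first sh8 library (0.0719).

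JAK1, a kinase of the interferon receptors, was at 2635, 2843 and 3145 in shlacZ, 5335 and 5936 under sh4, and 3290.0 and 4226 under sh8. It rose under sh4 (log2 fold change 0.97, adjusted p 0.00127 by limma), with a difference between the hairpins of 0.59 (adjusted p 0.0458). That difference was kept without shlacZ replicate 1 (adjusted p 0.0198) and lost in the other 6 fits that each left out a library, with an adjusted p of up to 0.293 without the first sh8 library. PTPN2, a phosphatase that acts on JAK1, fell under sh4 (-0.51, adjusted p 0.0199).

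Finally, 3 of 10 genes of class I turnover passed upwards under sh4, where 10.5% of all genes did so. SUSD6, part of a membrane complex that lowers class I at the surface, was at 245, 255 and 265 in shlacZ, 419 and 545 under sh4, and 163 and 139 under sh8. The sh4 libraries lay above the controls and the sh8 libraries under them, with log2 fold changes of 0.91 under sh4 (adjusted p 0.00560 by limma) and -0.75 under sh8 (adjusted p 0.0524), and a difference of 1.66 (interval 1.23 to 2.08, adjusted p 0.00183) that was kept in all 17 alternatives. SEL1L, of endoplasmic reticulum degradation, rose by 0.60 and SPPL3, an intramembrane protease, by 0.49 under sh4.

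Of the 13 sh4 calls among these genes, ULBP3, MR1, LNPEP and JAK1 were kept in all 7 fits that each left out a library. Without the second sh4 library the adjusted p was 0.106 for UGGT1, 0.223 for ERAP1, 0.147 for THOP1, 0.102 for HLA-V, 0.115 for PTPN2, 0.0764 for SUSD6, 0.167 for SEL1L and 0.221 for SPPL3. Without the first sh4 library it was 0.270 for STAT2, 0.118 for THOP1, 0.0899 for ERAP1, 0.0845 for PTPN2 and 0.0828 for HLA-V. Without shlacZ replicate 2 the calls on HLA-V, THOP1, ERAP1, STAT2, PTPN2 and SPPL3 were lost (0.0566 to 0.0995), and without shlacZ replicate 3 the same 6 calls were lost (0.0518 to 0.101). Without the variance trend, limma lost the sh4 calls on THOP1 (0.0752), ERAP1 (0.0726), STAT2 (0.0944), SEL1L (0.0649) and SPPL3 (0.0726). It then also lost the sh8 calls on NFKB1 (0.0741) and ULBP3 (0.0622) and the JAK1 difference between the hairpins (0.134). That difference was also lost with no minimum mean (0.0513), and the STAT2 call with only the compared groups in the fit (0.0515).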

How the data were processed

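Per the labels and the study's methods, stranded paired-end libraries were made after removal of ribosomal RNA. The submitters used cutadapt for adapters, STAR for alignment to hg38 and Salmon for the counts per gene. Versions and the annotation release, and whether strand was used in counting, are not given in the sources used here. The authors deposited 1 table of normalized counts (counts per gene divided by a size factor per library), with decimal commas. All values were whole multiples of 1 read (100%, tolerance 0.1 read), so that depth was recovered. The table itself was not taken as counts. Negative binomial tests were not run on the recovered reads, and limma-voom was run on them as an alternative. 0 columns belonged to other samples, and no gene had fewer than 10 reads in sum.

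Genes with a mean of at least 10 were tested with limma (3.58.1, R 4.3.3). Values entered as log2(normalized count + 1), with an empirical Bayes trend of the variance and Benjamini-Hochberg adjustment over all 15420 genes, which understates the fold change of low genes. The pooled comparison had 2 levels, and the others shared 1 fit with 3 groups. The scripts were tested on simulated data. Genes named were GRASLND, the 9 members, at most 4 passing genes per list, comparison and direction, IRF1 and the 3 nearest patterns to HLA-B, B2M and NLRC5. 1 further gene of that rule is not reported here. HLA-G, CIITA, PSMB9, HLA-F-AS1, ENSG00000250264 and CD68 were named beside results. The members and lists were chosen with earlier results of these data known.

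GENCODE 44 gave coordinates and transcript lengths for 99.9% of the genes, and RefSeq the promoters. Alternatives covered the pseudocount (0.5 and 10), the minimum mean (none and 50), a common library total, quantile normalization, no variance trend, limma-voom on recovered reads, the replicate number as a block, other groups in the fit, each library left out in turn, and the length used per kb.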

Additional observations from a re-analysis of the deposited data

Results flagged for a closer look

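The effect of the 2 hairpins against the same control differed, by a test of the difference itself, in 1 of the 9 class I presentation genes and in 3 of the 60 pathway genes tested, beside 7.0% of all genes. TAP2 was lower under sh4 than under sh8 by -0.75 on the log2 scale (adjusted p 0.0124 by limma). NFKB1 was higher under sh4 than under sh8 by 0.93 (adjusted p 0.00779), JAK1 by 0.59 (adjusted p 0.0458) and SUSD6 by 1.66 (adjusted p 0.00183). Of the 4, SUSD6 was kept in every alternative, and the other 3 were each lost without at least 1 library, as given above. None of 26 groups of 4 knockdown values held a library that stood apart by Dixon's test (highest ratio of gap to range 0.776).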

How the results depend on the processing

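Of 608 values of the 9 genes under an alternative, 599 kept their direction, where called, and their side of the threshold, 4 passed newly and 5 no longer passed. In the main fit only TAP2 and TAPBP under sh4 and TAP2 between the hairpins had passed. Most of the 599 were thus values that passed in neither fit. The 5 losses fell on TAPBP under sh4 and on TAP2 between the hairpins. The genes that passed among all tested numbered 711 pooled, 3464 under sh4, 451 under sh8 and 1079 for sh4 against sh8. Without the variance trend these were 138 pooled, 59 under sh8 and 476 for sh4 against sh8, with 1 member passing under sh4. From the fit with 3 groups, 2534 genes passed pooled, with 1 member (TAP2). With only the groups compared, 299 passed under sh8. Leaving out 1 library in turn gave 64 to 1144 genes pooled, 1413 to 4865 under sh4, 53 to 1600 under sh8 and 144 to 1975 for sh4 against sh8. Members that passed were then 1 to 3 under sh4 and 0 to 1 for sh4 against sh8. Each lone library was assumed to vary like the other groups. Same-numbered libraries did not deviate together in every pair (correlations of deviations from the group means -0.15 to 0.48), so the numbers were not taken as pairs. With the replicate number as a block, 42 genes passed pooled, 3376 under sh4, 574 under sh8 and 1467 between the hairpins, and no call on a member changed. Outside the members, the block ended the calls on THOP1 under sh4 (adjusted p 0.0638) and pooled (0.207) and on GRASLND pooled (0.15). Without the variance trend the pooled calls on THOP1 (0.0958 by limma) and GRASLND (0.0805) were lost too, besides the pathway calls given above. At a minimum mean of 50 NLRC5 had no value. Levels per kb moved with all exons as length, to 760.9 for B2M and 234 for TAPBP. With 2 libraries a hairpin, the intervals of the 9 genes under 1 hairpin spanned at least 0.28 on the log2 scale to each side and up to 0.99 for NLRC5, which sets the size of change that could be seen.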
